A study of Mus musculus with 4 samples.

Results

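The 10 genes described here belong to the serum response factor pathway of actin-linked transcription and to the contractile program of smooth muscle. They are the factor Srf, its coactivators Mkl1 and Mkl2, the transgelins Tagln and Tagln2, the calponins Cnn1, Cnn2 and Cnn3, the kinase gene Mylk and the adhesion receptor gene Mcam. They were taken by gene symbol from a deposited table of 54446 rows, in which each symbol had 1 row. The data came from 4 libraries of polyadenylated RNA from mouse satellite cells, the muscle stem cells, of hindlimb muscle from the strain C57BL/6, grown in F10 medium with 10% HS and P/S. In the knockdown group, 2 libraries were from cells given siRNA against LncMyod, and in the control group, 2 libraries were from cells given control siRNA, both harvested 48 h after treatment. The groups rest on titles, descriptions and treatment tags, since the treatment protocol text of the controls names the same siRNA target as that of the knockdown. The level of LncMyod itself was not analysed here, so no value checks these labels. Nothing in the labels says that replicates were separate cultures or animals, and every p-value then measures only the spread between these libraries, which may be technical.

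SRF is a MADS-box transcription factor that binds a short DNA element, the CArG box, in the promoters of actin and contractile genes. The proteins coded by Mkl1 and Mkl2, also called MRTF-A and MRTF-B, bind monomeric actin in the cytoplasm and enter the nucleus to activate SRF when actin is driven into filaments. A second class of SRF partners, the ternary complex factors of the Elk group, couples SRF to mitogen signalling and early response genes. In skeletal muscle SRF also serves actin and other sarcomere genes, and early smooth muscle markers such as Tagln and Acta2 are expressed by cultured myoblasts.

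Promoters of 4 genes are shown first: Srf and Cnn2, whose windows alone held a CArG box, Tagln2, whose window held MCAT elements, and Mcam, whose log2 fold change was the largest in size of the 8 tested genes. RefSeq promoters (GRCm38.p6, 250 bases before to 50 bases after a transcription start) were found for 9 of the 10 genes, all but Tagln, with 12 windows in all. Each window was searched on both strands for the CArG box, for the MCAT element CATTCC, which TEAD factors bind, and for the E-box CANNTG, which MYOD and related factors bind. In the following windows the capitals mark CArG boxes and MCAT elements. The Srf window lies at chr17:46556113-46556412 on the minus strand, the Cnn2 window at chr10:79988350-79988649 on the plus strand, the Tagln2 window at chr1:172499996-172500295 on the plus strand and the Mcam window at chr9:44134408-44134707 on the plus strand.
Srf: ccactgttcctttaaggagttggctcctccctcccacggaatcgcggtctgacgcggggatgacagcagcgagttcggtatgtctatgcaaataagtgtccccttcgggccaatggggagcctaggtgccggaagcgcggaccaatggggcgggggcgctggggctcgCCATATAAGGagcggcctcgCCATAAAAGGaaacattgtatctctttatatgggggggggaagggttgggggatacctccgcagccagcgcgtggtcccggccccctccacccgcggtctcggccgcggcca
Cnn2: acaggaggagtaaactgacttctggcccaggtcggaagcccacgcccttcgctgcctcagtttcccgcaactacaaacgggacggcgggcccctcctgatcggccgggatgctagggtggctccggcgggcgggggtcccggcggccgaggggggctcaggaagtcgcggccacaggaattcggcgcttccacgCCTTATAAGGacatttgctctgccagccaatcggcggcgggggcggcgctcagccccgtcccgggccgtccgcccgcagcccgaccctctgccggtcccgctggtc
Tagln2: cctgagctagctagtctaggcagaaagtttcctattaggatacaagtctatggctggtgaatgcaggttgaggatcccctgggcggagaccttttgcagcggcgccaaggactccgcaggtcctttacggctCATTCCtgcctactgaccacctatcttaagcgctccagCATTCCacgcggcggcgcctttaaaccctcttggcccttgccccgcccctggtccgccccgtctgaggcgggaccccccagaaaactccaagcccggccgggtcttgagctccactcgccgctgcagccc
Mcam: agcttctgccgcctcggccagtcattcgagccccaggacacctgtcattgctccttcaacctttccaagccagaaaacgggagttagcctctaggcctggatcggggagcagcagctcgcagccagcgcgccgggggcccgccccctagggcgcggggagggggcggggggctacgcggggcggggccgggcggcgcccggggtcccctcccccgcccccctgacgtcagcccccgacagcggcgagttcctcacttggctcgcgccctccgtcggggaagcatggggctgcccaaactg
The Srf window held 2 CArG boxes, CCATATAAGG and CCATAAAAGG, whose first bases lie 82 and 62 bases before the start. The Cnn2 window held 1 CArG box, CCTTATAAGG, which begins 56 bases before the start. The Tagln2 window held no CArG box and 2 MCAT elements, which begin 118 and 80 bases before the start. The Mcam window held neither element and 2 E-boxes. No other gene of the 9 had a CArG box in its window. With 1 mismatch allowed in the 6 central bases Mkl1 gained 1 (CCTAAATCGG), and 9.98% of all RefSeq windows and 11.3% of their genes held such a looser box. Among all 32851 RefSeq promoter windows 1.63% held a CArG box, 14.7% an MCAT element and 72.3% an E-box. MCAT elements were also found in windows of Mkl2 and Mylk. An E-box was found in windows of Mkl2, Cnn1, Cnn2 and Mcam, and none of the matches in these windows overlapped a match of another motif. Srf, Mkl1, Tagln2, Cnn3 and Mylk had no E-box in their windows. A match describes letters only, and no binding was measured.

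**Figure D1:**
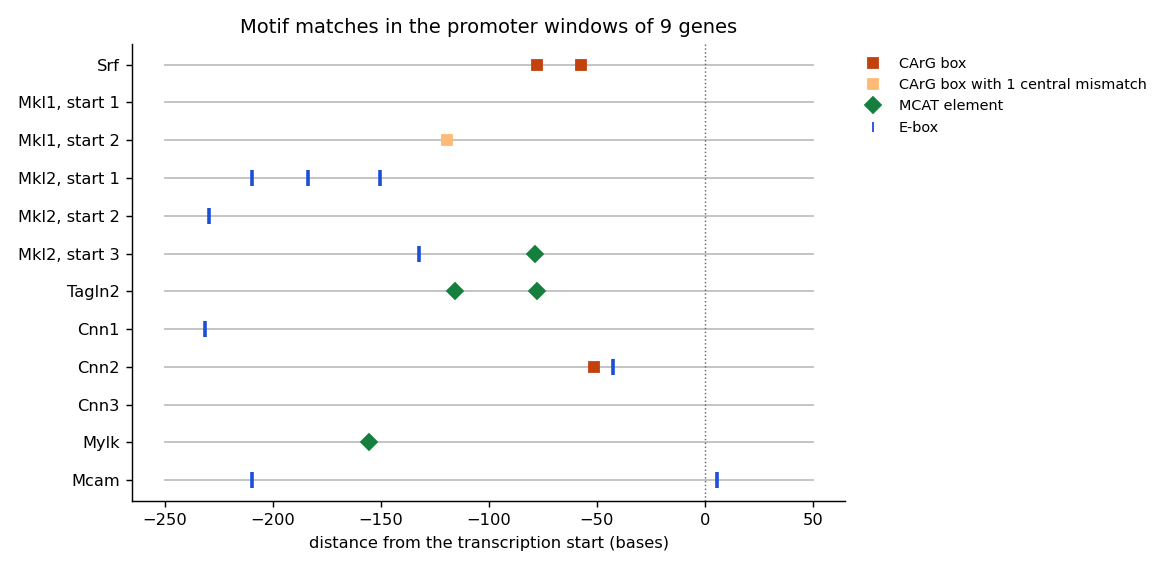
Position of motif matches in the promoter windows of 9 genes, by distance from the transcription start in bases; each grey line is a window of 300 bases and each mark a match, centred on its bases. Windows 1 and 2 of Mkl2 overlap and share an E-box. The CArG boxes of Srf and Cnn2 lie within 82 bases of the start.

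Levels are given in FPKM, a density of sequenced fragments scaled for gene length and library depth, so that genes can be compared per length. Cnn3 was the most abundant of the 10, with a mean of 511 FPKM over the 4 libraries, followed by Tagln at 127, Tagln2 at 117 and Cnn2 at 88.7. The ranges of Tagln and Tagln2 overlapped, as did those of Tagln2 and Cnn2, so these neighbours were not separated in level. Srf stood far lower at 2.83 FPKM, and the ranges of Mkl1 at 1.62, Mkl2 at 1.48 and Mcam at 1.39 overlapped one another. Cnn1 at 0.273 FPKM and Mylk at 0.0773 were the lowest. Transcripts of the calponins and transgelins that are found beyond smooth muscle were thus abundant beside Tagln, while Cnn1 and Mylk, which are high in differentiated smooth muscle, were near 0. The ranges of Mcam and Cnn1, and of Cnn1 and Mylk, also overlapped, whereas Srf lay above Mkl1 in every library. Of the 10 genes, 8 had a mean of at least 1 FPKM and were tested, and Cnn1 and Mylk were below that and were not. Mcam passed this filter through its control libraries alone, both knockdown libraries being under 1 FPKM.

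**Figure D2:**
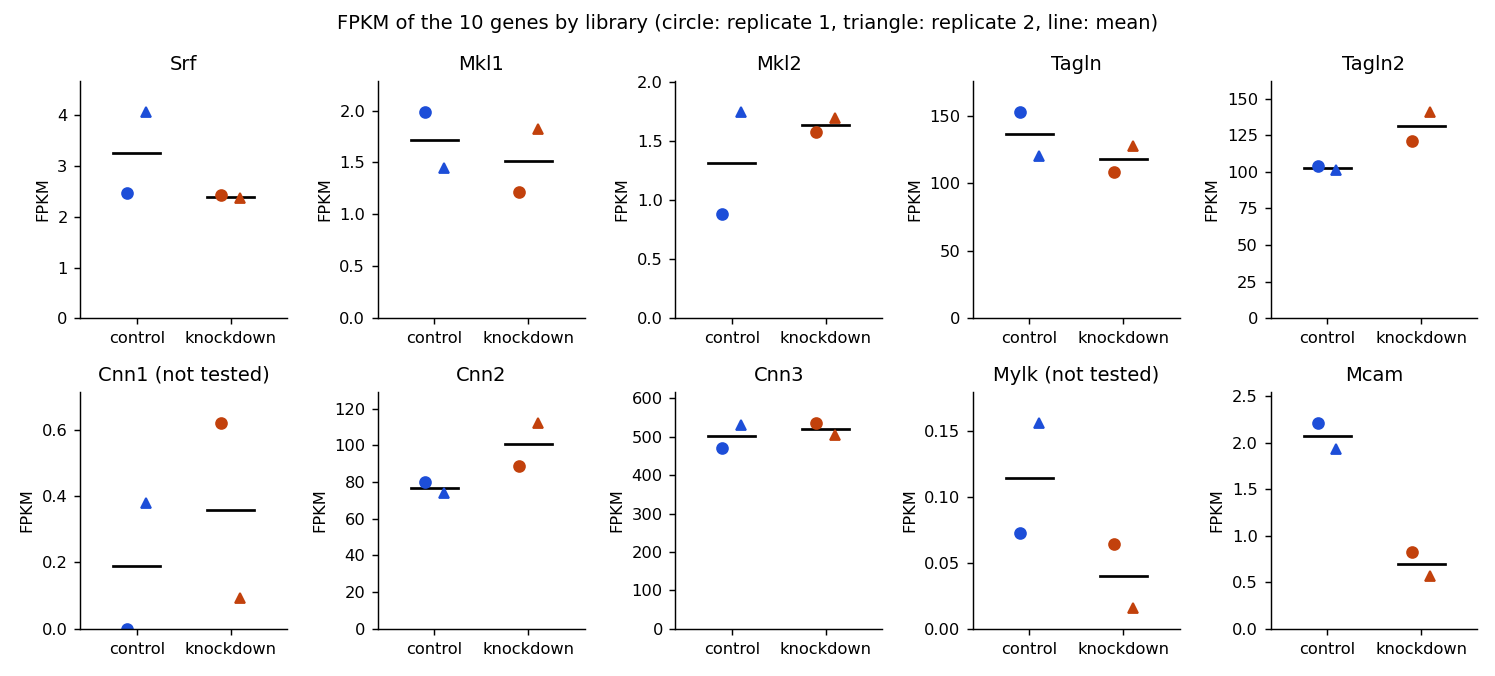
FPKM of each of the 10 genes in the 4 libraries, on linear axes that start at 0 and differ between panels; circles are replicate 1, triangles replicate 2, and lines group means of 2 libraries. Tagln2 and Cnn2 lie higher in both knockdown libraries than in both controls, and Mcam lies lower.

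The question was which of these genes differed after siRNA against LncMyod. By limma on log2(FPKM + 1) with Benjamini-Hochberg adjustment over 10900 rows, 0 of the 8 tested genes passed the adjusted threshold of 0.05, and 3 of 8, Mcam, Tagln2 and Cnn2, had an unadjusted p under 0.05. Mcam is in this count although only its control libraries reached the filter level. Over all rows tested, 0.055% passed the adjusted threshold (6 rows, with 0.00917% higher and 0.0459% lower) and 7.08% had an unadjusted p under 0.05. Tagln2 and Cnn2 lay higher in both knockdown libraries than in both controls, against 22.1% of all rows, and Srf and Mcam lay lower in both, against 16.3% of all rows. The median log2 fold change of the 8 was -0.028, with 4 positive and 4 negative, beside 0.026 over all rows tested, of which 54.8% were positive. Without Mcam the median was 0.059. A single comparison of 2 against 2 libraries cannot give a two-sided exact permutation p under 0.3333, which is the value of each gene whose groups did not overlap.

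Srf, the DNA-binding factor of the pathway (chromosome 17, 46548329 to 46556175, minus strand, GRCm38), stood at 2.43 FPKM in knockdown replicate 1, 2.37 in knockdown replicate 2, 2.47 in control replicate 1 and 4.07 in control replicate 2; further values are given in the same order. Both knockdown libraries were below both controls, but control replicate 1 was close to the knockdown values and control replicate 2 alone stood apart. The log2 fold change was -0.30 (SE 0.25, limma adjusted p 0.823), and it was -0.028 without control replicate 2 and -0.58 without control replicate 1. An FPKM of 1 over 1 kilobase corresponded to 36.7 to 41.1 reads of 150 nt in these libraries, so the Srf values rested on the equivalent of 257 to 459 reads per library, and no stretch of 75 bases in Srf transcripts occurred in another gene.

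The coactivator Mkl1 (chromosome 15, 81012281 to 81190757, minus strand) measured 1.21 and 1.82 FPKM in the knockdown libraries, compared with 1.99 and 1.45 in the controls. The groups overlapped, and the log2 fold change of -0.11 (95% interval -0.71 to 0.48) did not hold its sign when knockdown replicate 1 (0.063) or control replicate 1 (0.030) was left out. Mkl2 (chromosome 16, 13256481 to 13417529, plus strand) reached 1.57 and 1.70 FPKM after LncMyod siRNA, where the controls reached 0.882 and 1.75. Control replicate 1 was the low library, and the log2 fold change of 0.21 (95% interval -0.42 to 0.85) was -0.059 without it. The sum of both coactivators came to 2.79 and 3.52 FPKM with LncMyod siRNA and to 2.87 and 3.19 in the controls, so the total overlapped between the groups. Within a library the ratio of Mkl1 to Mkl2 was 0.770 and 1.07 in knockdown and 2.25 and 0.828 in control, with control replicate 1 again apart from the other 3 libraries.

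Tagln, coding for transgelin or SM22-alpha, an actin-binding protein of the calponin family and an early smooth muscle marker (chromosome 9, 45929619 to 45936058, minus strand), stood at 109 and 128 FPKM with LncMyod siRNA and at 153 and 120 with control siRNA. The groups overlapped, since knockdown replicate 2 exceeded control replicate 2. The log2 fold change was -0.20 (95% interval -0.56 to 0.15, limma adjusted p 0.802), and it was -0.030 without control replicate 1, -0.087 without knockdown replicate 1 and -0.37 without control replicate 2. The antisense gene Gm48529 covers 62.4% of the exonic bases of Tagln and had 3.62 to 8.57 FPKM; the sources used here name no strand setting, so reads of the pair cannot be told apart. With Gm48529 and Pcsk7, which also overlaps Tagln, added to it, the log2 fold change was -0.20.

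Tagln2, the transgelin of many cell types outside smooth muscle (chromosome 1, 172500047 to 172507380, plus strand), measured 121 and 141 FPKM in the knockdown libraries, compared with 104 and 101 in the controls. Both knockdown libraries were above both controls, and the controls were within 4 FPKM of each other. The fold was 1.28, with a log2 fold change of 0.35 (SE 0.11, 95% interval 0.085 to 0.61), an unadjusted limma p of 0.0174 and an adjusted p of 0.627. It was 0.24 to 0.45 when single libraries were left out, and 12.0% of all rows tested had a higher log2 fold change. No stretch of 75 bases in Tagln2 transcripts occurred in another gene, Tagln included.

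The order of the pair of transgelins differed between the groups. Tagln2 was 1.12 and 1.10 times Tagln in the knockdown libraries and 0.682 and 0.841 times Tagln in the controls, and the groups did not overlap. This ratio was chosen after its values were seen, and its exact permutation p was 0.3333, the lowest that 4 libraries allow. The sum of Tagln and Tagln2 came to 230 and 269 FPKM with LncMyod siRNA and to 257 and 221 in the controls, and the groups overlapped.

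Among the calponins, actin-binding proteins that restrain actomyosin, Cnn2 (chromosome 10, 79988584 to 79996062, plus strand) reached 88.6 and 112 FPKM after LncMyod siRNA, where the controls reached 80.0 and 73.9. Both knockdown libraries were higher than both controls, with knockdown replicate 2 the highest of the 4. The fold was 1.31 and the log2 fold change 0.37 (SE 0.14, 95% interval 0.039 to 0.70), with an unadjusted limma p of 0.0340 and an adjusted p of 0.669. It was 0.20 without knockdown replicate 2 and 0.54 without knockdown replicate 1.

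Cnn3, the acidic calponin and the most abundant of the 10 genes (chromosome 3, 121426497 to 121458207, plus strand), stood at 536 and 505 FPKM with LncMyod siRNA and at 470 and 531 with control siRNA. The groups overlapped and the log2 fold change was 0.059, with a 95% interval of -0.17 to 0.28. That interval was the narrowest of the 8, and the log2 fold change was -0.030 without control replicate 1. Of the stretches of 75 bases in Cnn3 transcripts, 16.1% also occurred in other genes, most of them in the overlapping Gm42928, which had at most 0.704 FPKM. Cnn1, basic calponin and a marker of mature smooth muscle (chromosome 9, 22099216 to 22109630, plus strand), had 0.621 and 0.0930 FPKM in knockdown, was listed at 0 in control replicate 1 and had 0.378 in control replicate 2. These values correspond to 0 to 62.2 reads, and libraries of each group lay both near 0 and above 0.3 FPKM. Cnn3 gave 81.8% to 87.7% of the summed calponin FPKM in every library, and Cnn2 gave 14.2% and 18.2% of it in knockdown and 14.6% and 12.2% in control. The summed calponins came to 625 and 617 FPKM with LncMyod siRNA and to 550 and 606 in the controls, so both knockdown libraries were higher, with control replicate 2 close to them.

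**Figure D3:**
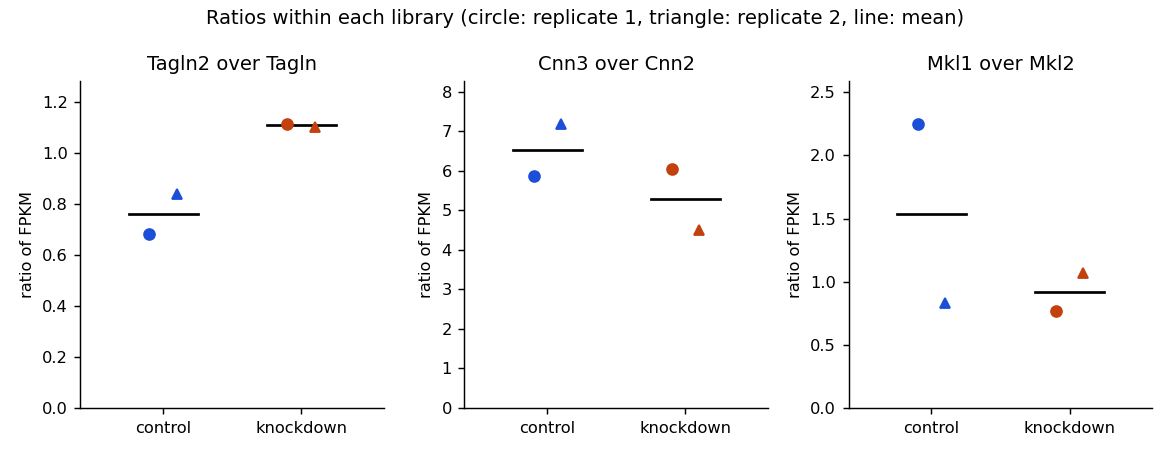
Ratios of FPKM between paralogous genes within each library, on linear axes that start at 0; circles are replicate 1, triangles replicate 2, and lines group means of 2 libraries. The ratio of Tagln2 to Tagln is 1.10 to 1.12 in knockdown and 0.682 to 0.841 in control, while the other ratios overlap between the groups.

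Mcam, which codes for the adhesion receptor CD146 of pericytes, endothelial cells and some progenitors (chromosome 9, 44134469 to 44142727, plus strand), measured 0.826 and 0.570 FPKM in the knockdown libraries, compared with 2.22 and 1.94 in the controls. Both knockdown libraries were below both controls, with a gap wider than the spread within either group. The mean was 2.97-fold higher in control than in knockdown, the log2 fold change was -0.86 (SE 0.22, 95% interval -1.40 to -0.32), and the unadjusted limma p of 0.00818 became 0.607 after adjustment. Of all rows tested, 0.440% had a lower log2 fold change. Mcam passed the filter of 1 FPKM only through its control libraries, so its p-value, interval and rank are descriptions and no independent support. The level is low, with the equivalent of 101 and 78.4 reads in knockdown and 291 and 253 in control, and the added 1 FPKM shrinks the fold on this scale: with 0.1 added in its place the log2 fold change was -1.46. It was -0.75 to -0.97 when single libraries were left out and -0.61 with the antisense row Gm10687, which shares 17 exonic bases, added to it. In bulk RNA, fewer cells that express a gene and less of its RNA per cell cannot be told apart.

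Mylk codes for myosin light chain kinase of smooth muscle and non-muscle cells (chromosome 16, 34745210 to 35002420, plus strand). It reached 0.0644 and 0.0157 FPKM after LncMyod siRNA, where the controls reached 0.0729 and 0.156. Both knockdown libraries were lower, but these values rest on the equivalent of 7.24 to 68.6 reads over a gene model of 11263 exonic bases, and the gene was not tested. Its antisense neighbour E130310I04Rik, which shares 4.87% of the Mylk exonic bases, stood at 0.423 and 0.2997 FPKM with LncMyod siRNA and at 0.0669 and 0.0448 with control siRNA, the opposite order. Without a strand setting the small shared stretch cannot be assigned to either gene.

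**Figure D4:**
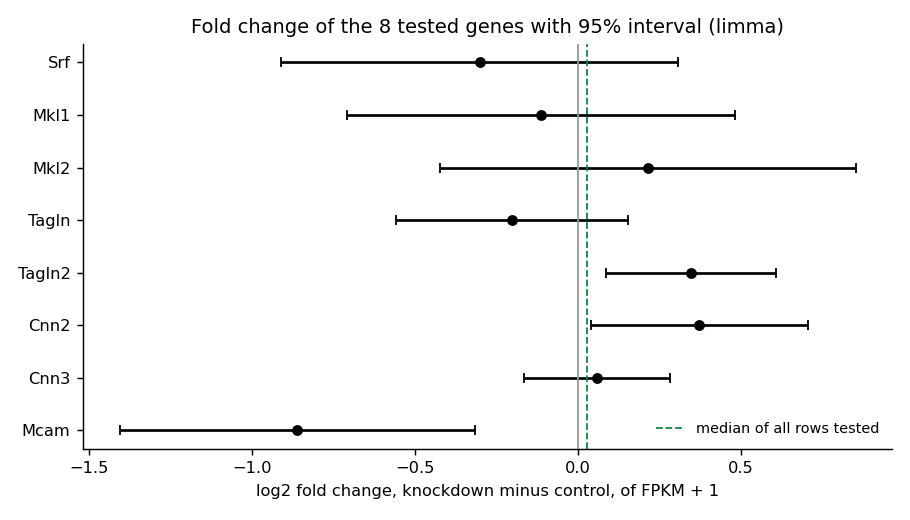
Log2 fold change of FPKM + 1, knockdown minus control, of the 8 tested genes with its 95% interval from limma; the dashed line is the median of all rows tested. The intervals of Mcam, Tagln2 and Cnn2 do not reach 0, and none of the 8 passed after adjustment over all rows.

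Other genes of the pathway were read from lists of upstream regulators, targets and markers. Of 22 SRF partners and upstream regulators of actin, 17 were tested and 0 passed the adjusted threshold in limma, with 5 at an unadjusted p under 0.05. In this list 14 of 17 had a positive log2 fold change, and 10 of 17 lay above both controls in both knockdown libraries while 1 lay below. Over all rows 7.08% had an unadjusted p under 0.05, 54.8% were positive, 22.1% lay above both controls and 16.3% below. The list median was 0.22, beside 0.026 over all rows. Elk3, a ternary complex factor, measured 4.13 and 4.83 FPKM in the knockdown libraries, compared with 1.76 and 2.09 in the controls, a 2.33-fold difference with an adjusted p of 0.523. Diaph1, a formin that builds actin filaments, measured 2.70 and 2.79 FPKM, compared with 1.35 and 1.22 in the controls, and Cap1, which recycles actin monomers, had 5.79 and 5.15 against 2.90 and 3.09; both had an adjusted p of 0.607. Cfl2, the muscle cofilin, was the member below both controls, with 66.1 and 59.3 FPKM against 81.0 and 76.1. Myocd, the myocardin of smooth and cardiac muscle, was listed at 0 in both knockdown libraries and had 0.109 and 0.147 FPKM in control. These values are near 0 and below the filter, and Myocd was not tested.

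Of 35 cytoskeletal targets of SRF with MRTF, 34 were tested, 1 passed as lower and 0 as higher, beside 0.055% of all rows tested that passed. The 1 was Tpm4, a tropomyosin of non-muscle actin filaments, with 460 and 441 FPKM after knockdown, against 862 and 822 in the controls (log2 fold change -0.90, SE 0.076, limma adjusted p 0.0350). Its call ended without control replicate 1 or 2, with adjusted p-values of 0.340 and 0.358, with a replicate block (0.135), and with the low-value filter dropped (0.727) or the variance trend dropped (0.596). The list was divided, with 20 positive and 14 negative and a median of 0.031, beside 0.026 over all rows. By limma 8 of the 34 had an unadjusted p under 0.05, beside 7.08% of all rows. In both knockdown libraries 10 lay above both controls and 8 below, beside 22.1% and 16.3% of all rows. Actc1, cardiac alpha-actin, stood at 1056 and 891 FPKM with LncMyod siRNA and 1367 and 1295 with control siRNA, and Cyr61, a matricellular protein gene, had 648 and 580 against 776 and 782, with adjusted p-values of 0.523 and 0.566. Tpm4, Actc1 and Cyr61 were named for the lowest unadjusted p-values of the list, and their shared direction is not that of the list. The list median was 0.12 without knockdown replicate 1 and -0.016 without knockdown replicate 2.

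Early targets of SRF with the ternary complex factors had 9 of 13 members tested, 3 positive and 6 negative, with a median of -0.066 and 0 past the adjusted threshold in limma (3 at an unadjusted p under 0.05). The shares over all rows tested were 54.8% positive, 0.055% past the threshold and 7.08% at an unadjusted p under 0.05, and the median was 0.026. Egr1 and Egr2, zinc finger factors of the early response, lay apart from their controls in opposite directions. Egr1 reached 52.1 and 54.0 FPKM after LncMyod siRNA, where the controls reached 68.7 and 83.6 (adjusted p 0.573), whereas Egr2 had 4.61 and 4.45 against 1.82 and 2.66 (adjusted p 0.607). Btg2, an antiproliferative gene, measured 25.2 and 27.4 FPKM, compared with 33.9 and 31.7 in the controls (adjusted p 0.692).

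Genes of myosin light chain phosphorylation, the step that Mylk serves, had 15 of 20 members tested, 9 positive and 6 negative, a median of 0.065 and 0 past the adjusted threshold in limma (2 at an unadjusted p under 0.05). Beside them, 54.8% of all rows tested were positive, 0.055% passed and 7.08% had an unadjusted p under 0.05, with a median of 0.026. Myl12b, a non-muscle regulatory light chain, stood at 45.8 and 33.9 FPKM with LncMyod siRNA and 51.9 and 53.6 with control siRNA (adjusted p 0.692). Ppp1r14c, an inhibitor of protein phosphatase 1, overlapped between the groups, with 4.35 and 2.998 FPKM against 5.92 and 4.19 (adjusted p 0.775). Of 7 relatives of the 10 genes, 2 were tested, the kinase gene Mylk4 and the adhesion gene Bcam, and the groups overlapped in both, with adjusted p-values of 0.841 and 0.987.

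**Figure D5:**
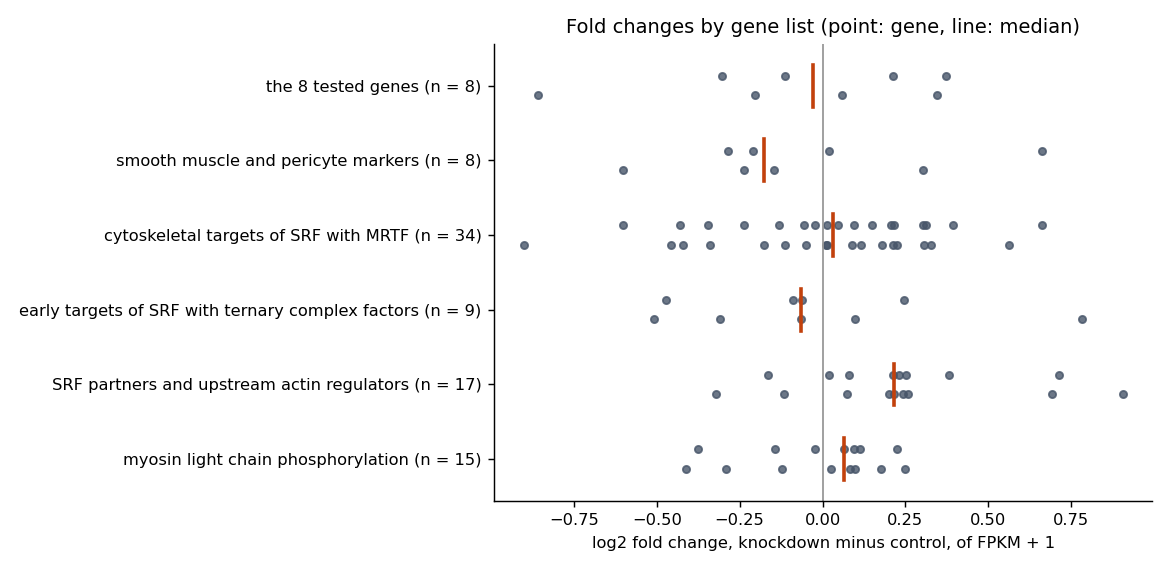
Log2 fold change of FPKM + 1, knockdown minus control, of the tested genes of 5 lists and of the 8 tested genes of the report; points are genes and vertical lines medians. The list of SRF partners and upstream regulators has 14 of 17 points above 0, and the targets with MRTF are divided around 0.

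Markers of smooth muscle and pericytes were read in the same way. Of 16 markers, 8 were tested and 0 passed the adjusted threshold in limma, with 3 at an unadjusted p under 0.05, 3 positive and 5 negative, and a median of -0.18. Among all rows tested, 0.055% passed, 7.08% had an unadjusted p under 0.05 and 54.8% were positive, with a median of 0.026. Myh11, smooth muscle myosin, had at most 0.034 FPKM in any library, and of the pericyte markers Rgs5 had at most 0.098 and Kcnj8 was listed at 0 in all 4. Other markers of the list were present: Smtn, smoothelin, had 34.3 to 42.3 FPKM, and the pericyte markers Cspg4 and Notch3 had 1.02 to 1.53 and 0.768 to 1.37. Acta2, smooth muscle actin, which differentiating myoblasts also express, measured 2670 and 2576 FPKM in the knockdown libraries, compared with 3165 and 3021 in the controls (adjusted p 0.607), and Actg2, enteric smooth muscle actin, lay the other way with 8.83 and 11.4 against 5.29 and 6.71 (adjusted p 0.626). Actin genes are near-identical over long stretches, and how shared reads were divided among them is not stated in the sources used here. Cald1, caldesmon, measured 59.8 and 62.9 FPKM, compared with 49.3 and 49.6 in the controls (adjusted p 0.645). The summed level of the 16 markers came to 3006 and 2976 FPKM with LncMyod siRNA and to 3551 and 3411 in the controls, most of it Acta2, and the part of such cells in the Mcam values was not tested.

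Endothelial cells also express Mcam, and their markers had a summed level of 2.73 and 1.34 FPKM after knockdown, against 0.926 and 2.06 in the controls over 8 genes, with Kdr and Tie1 listed at 0 in all libraries and 1 of 8, Tek, tested. Leukocyte markers summed to 2.27 to 3.40 FPKM over 7 genes, with Ptprc, Adgre1 and Itgam listed at 0 throughout, and Schwann cell markers to at most 1.40 over 6 genes. Fibroblast markers summed to 35.8 and 36.6 FPKM after knockdown, against 29.1 and 30.6 in the controls over 8 genes, with 3 tested. Most of this sum was Col3a1, with 27.4 and 29.4 against 23.0 and 24.4. Col1a1 lay the other way, with 3.20 and 2.18 against 3.76 and 4.70. Pdgfra and Lum were at 0 in all but control replicate 1. Skeletal muscle markers summed to 5737 and 5126 FPKM after knockdown, against 6847 and 6491 in the controls over 10 genes. Among them Myog, the factor of differentiating myoblasts, stood at 3406 and 2793 FPKM with LncMyod siRNA and 4196 and 3931 with control siRNA (adjusted p 0.607), and Mymk, the fusion protein gene, had 307 and 257 against 394 and 382 (adjusted p 0.523). Pax7, of the same list, had 1.40 and 0.625 FPKM against 1.02 and 0.859, with a mean below the filter. The skeletal muscle markers had the highest sum of the marker lists, most of it Myog. Of 9 tested, 0 passed the adjusted threshold in limma and 2 had an unadjusted p under 0.05. There were 1 positive and 8 negative, with a median of -0.15. In both knockdown libraries 4 lay below both controls and 1, Tnnt1, lay above. Over all rows tested 0.055% passed, 7.08% had an unadjusted p under 0.05 and 54.8% were positive, with a median of 0.026. The shares over all rows were 16.3% below and 22.1% above. Cdh15, Des, Chrna1 and Myh3 overlapped between the groups. The libraries with lower Mcam also had lower summed muscle markers, and their part in the Mcam values was not tested.

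Rows most like Srf, Tagln and Mcam across the 4 libraries were sought among rows of at least 5 FPKM. The measure was the mean absolute difference of centred log2(FPKM + 1) values, a scale that shrinks the changes of low genes such as Srf and Mcam. Nearest to Srf were Gorasp1, Magee1 and Snrnp200, with differences of 0.037, 0.040 and 0.048, all of them high in control replicate 2. Nearest to Tagln were Spats2, Ripor1 and Ddx39b, with differences of 0.024, 0.026 and 0.027, all highest in control replicate 1. Nearest to Mcam were Tpm4, Ptgis and Rwdd4a, with differences of 0.055, 0.059 and 0.065. With 0.1 FPKM added in place of 1, the log2 fold change was -1.46 for Mcam and -0.90 for Tpm4, so their likeness depends on the added 1 FPKM. Ptgis, prostacyclin synthase, reached 10.0 and 8.69 FPKM after LncMyod siRNA, where the controls reached 18.9 and 15.1, and Tpm4 is the row that passed above. Over 4 libraries such likeness is a description only.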

How the data were processed

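Transcript levels of 4 libraries, 2 per group, were read from the deposited table, which the authors gave as 1 FPKM value per gene and sample; the unit was read from the values, which summed to 317223 to 322496 per library. Per the labels' protocols, SMART-Seq v4 cDNA was sheared, built into Ovation Ultralow libraries and read from both ends for 150 nt. StringTie 1.3.3, HISAT2 2.1.0, Trimmomatic 0.36, SAMtools 1.3, bcl2fastq 2.19 and the build mm10 are listed, without roles, in the submitters' processing notes; the sources used here give no annotation release or strand setting. In genes with several transcripts and under 20 FPKM, the deposited FPKM multiplied by the union of exon lengths in GENCODE M21 was a whole multiple of a millionth, within 0.02, for 97.7% to 97.8% of values (chance 4%; 8.73% to 8.93% without the length). A gene value is therefore spread over all annotated exons and understates genes whose expressed transcript is shorter; the longest transcript covers 69.5% to 100% of that length in the 10 genes. In genes with 1 exon, the product moved in steps of 0.162 to 0.182, equal to 36.7 to 41.1 reads of 150 nt per FPKM and kilobase; read equivalents use this step and are not counts of independent molecules.

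The 10900 rows with a mean of at least 1 FPKM were tested, two-sided, with limma 3.58.1 (R 4.3.3, mean-variance trend) on log2(FPKM + 1), adjusted by Benjamini-Hochberg at 0.05. Fold changes on this scale understate changes of low genes. The fit was tested on simulated data. Python 3.11.15 with pandas 2.3.3, scipy 1.17.1 and matplotlib 3.10.9 was used for the rest. Named genes were the 10, up to 3 of each of 11 lists by unadjusted p, any gene past the threshold, and the 3 rows nearest in pattern to Srf, Tagln and Mcam; Cfl2, Myocd, E130310I04Rik and single markers were named after their values were seen. A gene so chosen is left out here. The 10 genes and the lists were chosen with earlier results of these data known. Alternatives were a replicate block, quantile, median-ratio and TPM scaling, no trend, pseudocounts of 0.1 and 5, no filter or 5 FPKM, single libraries left out, and overlapping rows summed.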

Additional observations from a re-analysis of the deposited data

How the results depend on the processing

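Of the 10 genes, 0 passed the adjusted threshold under any alternative run, by limma, with 0 to 3 at an unadjusted p under 0.05, and Mcam, Tagln2, Cnn2, Srf and Tagln kept their sign under each alternative in which they were fitted. The filter at 5 FPKM left out Srf, Mkl1, Mkl2 and Mcam. Signs turned for Mkl1 without knockdown replicate 1 (0.063) or control replicate 1 (0.030), for Mkl2 (-0.059), Cnn3 (-0.030) and Bcam (0.018) without control replicate 1, for Bcam without knockdown replicate 2 (0.095) and for Cd14 without knockdown replicate 1 (-0.20). Leaving out single libraries gave log2 fold changes of -0.29 to 0.063 for Mkl1, -0.059 to 0.49 for Mkl2, -0.030 to 0.15 for Cnn3, -0.14 to 0.095 for Bcam, -0.20 to 0.71 for Cd14, -0.10 to 0.47 for Cnn1 and -0.15 to -0.045 for Mylk. Cnn1 had 0.77 with a pseudocount of 0.1, and Mylk had -0.61 with 0.1, -0.021 with 5 and -0.26 on the TPM scale.

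The count of 6 called rows was 0 without the low-value filter (1508 of 24969 at an unadjusted p under 0.05), 3 with a replicate block and 5 to 15 without single libraries, the highest without knockdown replicate 1. With the block, Tpm4 had an adjusted p of 0.135. Same-numbered libraries did not deviate together over rows (correlation of deviations -0.021). This single value cannot show whether libraries were paired, and the labels state no pairing. The median of the tested genes among the 10 was 0.20 at the 5 FPKM filter and -0.094 to 0.060 without single libraries.

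List medians moved as follows. Smooth muscle and pericyte markers, at -0.18 as reported, had -0.13 on the TPM scale, -0.15 without the filter, -0.12 with a pseudocount of 5, and -0.17 to -0.11 without single libraries. Early targets had -0.088 at the 5 FPKM filter, -0.095 with median-ratio scaling, -0.061 without the filter, -0.058 with a pseudocount of 5, -0.044 with quantile normalization, and -0.089 to -0.062 without single libraries. SRF partners and regulators had 0.14 at the 5 FPKM filter, 0.15 with a pseudocount of 5, 0.17 with quantile normalization, and 0.12 to 0.23 without single libraries. Targets with MRTF had -0.016 to 0.12, light chain phosphorylation genes -0.045 to 0.039 and skeletal muscle markers (-0.15 as fitted) -0.25 to -0.10 without single libraries, and fibroblast markers (0.25 as fitted) 0.020 without the filter. The cause was not tested. With 1 mismatch allowed, 3 genes in place of 2 held a CArG box, beside 11.3% in place of 1.81% of all genes with RefSeq windows.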

Other observations

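Some pathway genes differed more between libraries than between groups or lay apart in lists that the comparisons use only in sum. Synpo2, an actin-bundling protein gene of the smooth muscle list, stood at 6.07 and 0.404 FPKM with LncMyod siRNA and at 0.381 and 15.6 with control siRNA, so 1 library of each group was high and the groups overlapped. Cd34, a surface marker of fibro-adipogenic progenitors, of vessels and also of satellite cells, measured 4.52 and 4.62 FPKM in the knockdown libraries, compared with 1.36 and 1.17 in the controls, a 3.61-fold difference with a limma adjusted p of 0.265. Pdgfrb, a pericyte receptor gene, reached 0.460 and 0.634 FPKM after LncMyod siRNA, where the controls reached 0.150 and 0.184, below the filter and opposite in direction to Mcam. Some other pericyte markers lay below both controls, as did Mcam and 16.3% of all rows tested. Cspg4 had 1.02 and 1.04 FPKM against 1.53 and 1.42 (limma adjusted p 0.807). Abcc9 had 0.0842 and 0.0621 against 0.262 and 0.139. Rgs5 was listed at 0 in both knockdown libraries and had 0.0733 and 0.0981 in control. Abcc9 and Rgs5 were below the filter and near 0. Notch3 overlapped between the groups, with 0.768 and 1.37 against 1.12 and 0.932, and Kcnj8 was listed at 0 in all libraries. Nr4a1, an early response receptor gene, measured 0.541 and 0.358 FPKM, compared with 0.983 and 1.25 in the controls, also below the filter. These genes were picked after their values were seen, except Cd34.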
